A study of Mus musculus with 17 samples.

Results

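The enzymes described here carry betaine, methionine and homocysteine metabolism in the mouse kidney cortex. They are 10 genes, Bhmt, Bhmt2, Chdh, Dmgdh, Sardh, Mat2a, Ahcy, Cbs, Cth and Gnmt, chosen by gene name from the 48795 genes of the deposited table of read counts. All 10 were in the table, and each was followed in all 17 samples. The samples were kidney cortices in 4 groups, and the labels number them as separate mice within each group. Some WT and GCERAd libraries may nevertheless be repeats of the same mouse, as described with the processing. The WT group held 5 samples of wild type mice, and whether they received tamoxifen is not given in the sources used here. The GCERAd group held 5 samples of mice that carried Ggt/CreER and homozygous floxed Atf4 alleles (Ggt/CreER; ATF4 fl/fl) and had received tamoxifen at 6 weeks of age on 2 days. In this line a portion of the promoter of Ggt1, a gene of the proximal tubule brush border, drives a tamoxifen-inducible Cre, so Atf4, whose product switches on stress response genes, is deleted only where that promoter is active. WT and GCERAd mice were fasted for 16 h before sacrifice, about a month after tamoxifen in the GCERAd mice. The TRACK group held 3 samples of a transgenic model of kidney cancer, and the GCERAdT group held 4 samples labelled as TRACK with ATF4 knockout. TRACK mice are known for a constitutively active HIF1A in proximal tubules, and the tamoxifen, age and fasting of the TRACK and GCERAdT mice are not given in the sources used here.

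In the methionine cycle, methionine is activated to S-adenosylmethionine (SAM), methyltransferases use SAM and leave S-adenosylhomocysteine, and its hydrolysis gives homocysteine. Homocysteine is either methylated back to methionine or passed through transsulfuration to cysteine. Betaine, made from choline in mitochondria, is a methyl donor for that step, and the dimethylglycine left over is demethylated to sarcosine and then to glycine. The renal cortex oxidises choline to betaine, which also serves as an organic osmolyte in the medulla.

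Features of the libraries that bear on every comparison came first. Sex-linked transcripts separated WT from all other samples. Xist, the RNA that silences an X chromosome in female cells, was at 149 to 418 CPM, read counts scaled to a common library total, in the 5 WT samples and at most at 6.07 CPM in the other 12. Ddx3y, a Y-linked gene, had no count in WT and 49.8 to 80.3 CPM elsewhere. Genotype and sex therefore cannot be told apart in any comparison with WT, whereas every sample of GCERAd, TRACK and GCERAdT carried Y-linked transcripts. Atf4 itself was at 74.4 to 100 CPM in WT and 56 to 77 CPM in GCERAd, a log2 fold change of -0.38 (edgeR adjusted p = 0.0215), with overlapping values. It was not lower in the samples labelled GCERAdT, at 79.6 to 104 CPM against 77.2 to 93.8 CPM in TRACK (log2 fold change 0.17, edgeR adjusted p = 0.367). Atf4 transcript levels thus did not distinguish the knockout label there. Of 10 genes, Atf4 and targets, edgeR called 1 there, Chac1, lower at -1.16 (adjusted p = 0.0435). In GCERAd against WT it called 5 of the 10, 4 of them lower. In GCERAdT against GCERAd it called 8, all higher, with Atf4 among them (log2 fold change 0.52, edgeR adjusted p = 0.0107). Counts are per gene, so reads on the deleted stretch of Atf4 could not be set apart, and the cortex holds other cells than proximal tubules. The libraries also fell into 2 kinds by their share of counts on processed pseudogenes, 0.032% to 0.038% in 8 samples (kind A) and 0.0574% to 0.0784% in 9 samples (kind B). Kind B held WT 2, GCERAd 3 to 5, all of TRACK and GCERAdT 3 and 4. The study's sequencing record gives fewer bases per cluster of reads for some libraries than for others. Matched by library name order and read number, these would be the kind B libraries of WT and GCERAd. The record does not name the samples, and the part of this difference in the kinds was not tested. Total counts were between 53688512 and 71364561 per sample. Proximal tubule markers were abundant, with a summed level over 9 of 9 genes of 10200 to 12400 CPM in WT, 12700 to 15200 in GCERAd, 7720 to 9330 in TRACK and 7520 to 8730 in GCERAdT. In GCERAd against WT, 7 of the 9 were not called, Lrp2 at -0.03 and Slc5a2 at 0.09 on the log2 scale among them, while Slc27a2 and Ggt1 rose by edgeR (0.36, adjusted p = 0.027, and 0.67, adjusted p = 0.00109). Markers of later segments fell there, 3 of 3 for the thick ascending limb (Slc12a1 -0.82, edgeR adjusted p = 0.0013), 2 of 3 for the distal convoluted tubule, 3 of 3 for principal cells (Aqp2 -1.32, edgeR adjusted p = 0.00662) and 1 of 3 for intercalated cells (Slc4a1 -0.76, edgeR adjusted p = 0.000155). The groups therefore also differed in tubule segment signal, whose part in the results below was not tested. GCERAd 4 and 5 stood apart from GCERAd 1 to 3, with a chi-square per gene between the counts of a pair of samples of 270 to 329 across that divide against 34.7 to 73.8 among GCERAd 1 to 3 and 45.1 between GCERAd 4 and 5. In bulk tissue, fewer cells of a type and less RNA per cell cannot be told apart.

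Per length of transcript, the enzymes spanned about 1 order of magnitude in WT cortex. FPKM, the same scaled counts divided by transcript length and computed here, gave the order Ahcy, Cth, Chdh, Mat2a, Dmgdh, Sardh, Bhmt2, Gnmt, Bhmt and Cbs. The mean FPKM ran from 94.1 for Ahcy, with an SD of 25.8, to 11.1 ± 0.517 (SD, n = 5) for Cbs. Neighbours in this order between Mat2a at 47.9 ± 4.59, Dmgdh at 46.9 ± 5.81, Sardh at 45.0 ± 3.95 and Bhmt2 at 43.0 ± 6.14 FPKM differed by less than their SD. Ahcy and Cth, at 78.2 ± 7.19 FPKM, differed by less than the SD of Ahcy but by more than that of Cth. The ratio of the highest to the lowest member was 8.46 in WT. It was 93.7 in GCERAd, 160 in TRACK and 60.0 in GCERAdT, and in these 3 groups the lowest member was Bhmt.

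**Figure D1:**
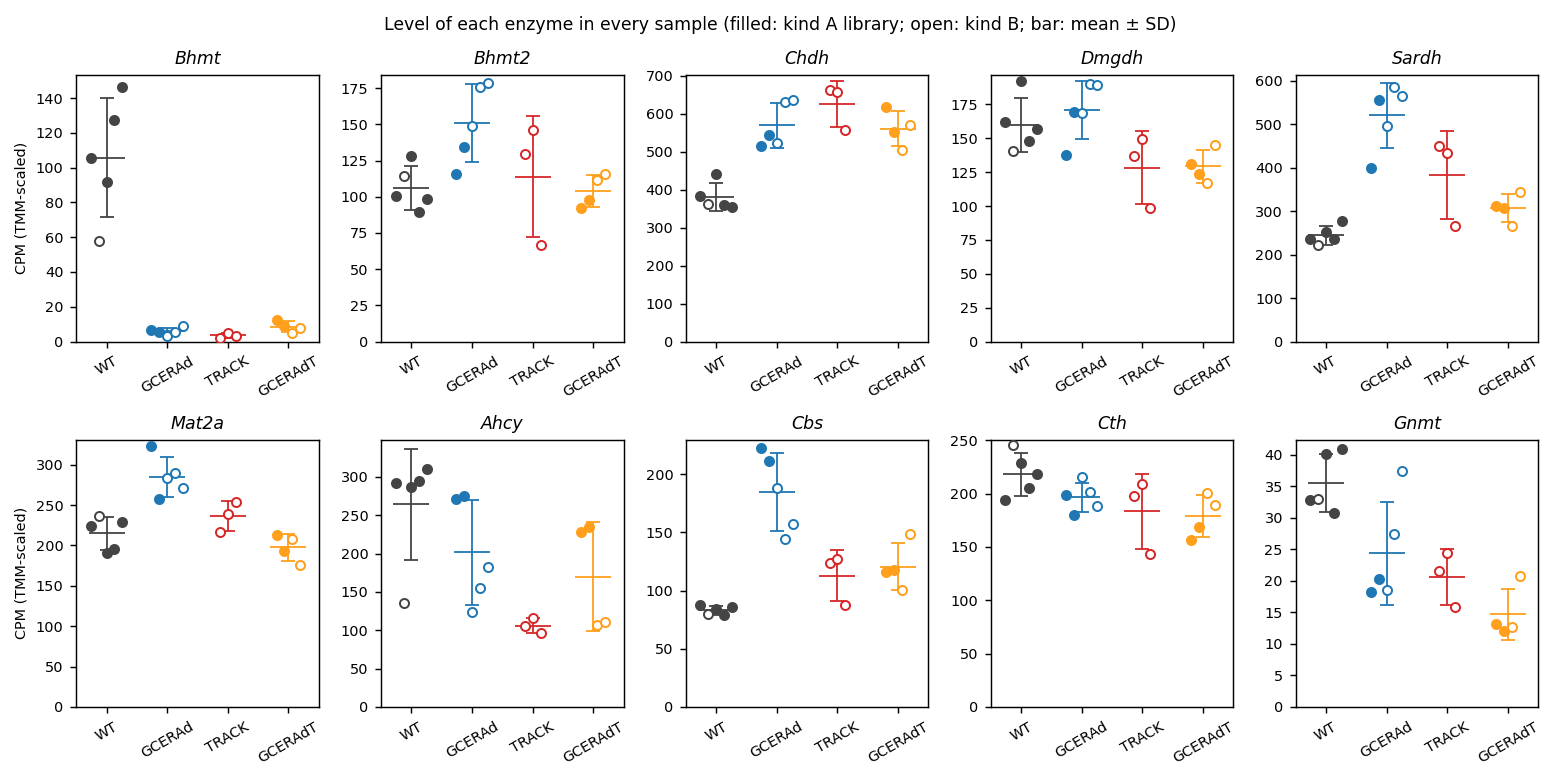
Level of each enzyme in CPM (linear axes from 0) in every sample of the 4 groups, in replicate order from left to right. Filled points are kind A libraries, open points kind B libraries, and bars give the mean and SD. Bhmt was far lower in all 12 samples outside WT, Sardh and Cbs were highest in GCERAd, and Ahcy followed the library kind.

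Bhmt encodes betaine-homocysteine methyltransferase, which moves a methyl group from betaine to homocysteine. In WT it was at 106, 57.6, 91.6, 128 and 146 CPM in samples 1 to 5. In GCERAd it was at 6.68, 5.46, 3.33, 5.23 and 8.74 CPM. TRACK samples held 2.29, 5.2 and 3.39 CPM. GCERAdT samples held 12.5, 9.18, 5.03 and 7.90 CPM. Every WT sample was above every other sample, and the lowest WT value was in its only kind B library. The GCERAdT values overlapped those of both GCERAd and TRACK. Bhmt was 18.1 times lower in GCERAd than in WT (log2 fold change -4.18, SE 0.30, edgeR adjusted p = 2.51e-06) and 29.2 times lower in TRACK (log2 fold change -4.87, SE 0.38, edgeR adjusted p = 9.74e-06). Within kind A alone the GCERAd difference was -4.28 on the log2 scale (edgeR adjusted p = 5.19e-06). Within kind B, where WT had 1 library, it was -3.34 (edgeR adjusted p = 0.0523). With library kind as a factor the values were -3.94 for GCERAd and -3.99 for TRACK, and both passed the threshold. The TRACK value rests on the 1 kind B library of WT, since all of TRACK was kind B. Its FPKM was 18.4 ± 5.92 in WT and 1.02 in GCERAd, just above the minimum of 1 set for testing, and 0.63 in TRACK, so in TRACK against WT it was tested through WT alone.

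GCERAdT held more Bhmt than TRACK, with a log2 difference of 1.28 (SE 0.34), which did not pass adjustment with edgeR (adjusted p = 0.0553). DESeq2 gave an adjusted p of 0.00202 for the same samples, and edgeR without the FPKM minimum gave 0.00845. Without TRACK 2 the edgeR adjusted p was 0.0498, and without GCERAdT 3 it was 0.0445. Within kind B the difference was 0.85 on the log2 scale (edgeR adjusted p = 0.291), and the 2 kind A libraries of GCERAdT held its highest values. Bhmt was tested here only because GCERAdT, at 1.5 FPKM, exceeded the minimum. Counts behind these low levels were between 124 and 954 per sample. Bhmt is best known as a liver enzyme, so hepatocyte markers were summed over 5 of 5 genes. The sum was 64.0 to 88.7 CPM in WT, 49.8 to 66.1 in GCERAd, 138 to 226 in TRACK and 76.5 to 115 in GCERAdT. The sum was mostly Ttr and did not stand for each marker. In GCERAd against WT, 3 of the 5 fell with Bhmt by edgeR, Alb (-1.27, adjusted p = 0.0148), Fgb (-1.70, adjusted p = 0.00438) and Apoa2 (-0.97, adjusted p = 0.0359), while Ttr gave 0.14 and Serpina1c 0.31. In TRACK against WT, Ttr, Apoa2 and Serpina1c rose by edgeR (1.94, 0.97 and 1.16), Alb gave -0.53 and Fgb -0.13. None of the 5 was at 0, and the part of hepatocyte RNA in the Bhmt levels was not tested.

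Bhmt2, the neighbouring paralog, encodes a methyltransferase that takes the methyl group from S-methylmethionine. It was at 89.4 to 128 CPM in WT and 116 to 179 CPM in GCERAd, with 1 value of GCERAd inside the WT range. TRACK samples held 130, 146 and 66.7 CPM and GCERAdT samples 92.0, 97.6, 112 and 115 CPM. It was 1.41 times higher in GCERAd than in WT (log2 fold change 0.50, SE 0.13, edgeR adjusted p = 0.0126), opposite in direction to Bhmt. The call was lost within kind A (0.27, edgeR adjusted p = 0.151) and without GCERAd 4 and 5 (0.34, edgeR adjusted p = 0.0531), the 2 samples with the most Bhmt2. TRACK 3 stood far below TRACK 1 and 2, and without it Bhmt2 was higher in TRACK than in WT (0.37, edgeR adjusted p = 0.04).

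Per length, Bhmt made up 31.1%, 17.7%, 23.5%, 37.9% and 39.0% of the summed Bhmt and Bhmt2 FPKM in WT samples 1 to 5. The share was 29.8% ± 9.19 (SD, n = 5) in WT, 1.68% ± 0.588 (SD, n = 5) in GCERAd, 1.46% ± 0.689 (SD, n = 3) in TRACK and 3.53% ± 1.54 (SD, n = 4) in GCERAdT. GCERAd differed from WT in an exact two-sided permutation test (p = 0.00794, the smallest that 5 against 5 can give, and 0.0317 after adjustment over 4 comparisons). With WT 1 and 2, and GCERAd 2 and 3, counted as 1 sample each, in case they were repeat libraries, the exact p was 0.0286, the smallest for 4 against 4, and 0.114 after adjustment, which does not pass. TRACK against WT gave an exact p of 0.0357 (adjusted 0.0635), GCERAdT against GCERAd 0.0476 (adjusted 0.0635) and GCERAdT against TRACK an exact p of 0.114. The last design cannot reach the threshold, since its smallest p is 0.0571. Transcripts of the 2 paralogs were thus mixed in WT and nearly all Bhmt2 in the other groups.

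**Figure D2:**
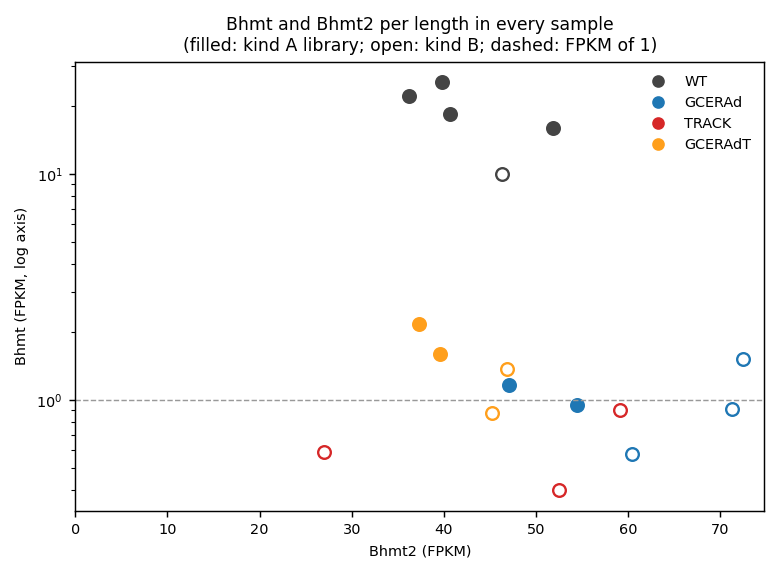
Bhmt (log axis) against Bhmt2 (linear axis) in FPKM in every sample, with filled points for kind A and open points for kind B libraries. The 5 WT samples lie between 10.0 and 25.4 FPKM of Bhmt, all other samples between 0.398 and 2.17, while Bhmt2 stays between 27.0 and 72.5 FPKM throughout.

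Chdh encodes choline dehydrogenase, the mitochondrial enzyme that starts the oxidation of choline to betaine. It was at 384, 361, 442, 360 and 354 CPM in WT. GCERAd samples held 515, 543, 522, 629 and 636 CPM, TRACK samples 663, 657 and 556 CPM and GCERAdT samples 616, 551, 504 and 570 CPM. Every sample of the 3 other groups was above every WT sample. Chdh was 1.49 times higher in GCERAd than in WT (log2 fold change 0.57, SE 0.09, edgeR adjusted p = 0.000581) and 1.64 times higher in TRACK (log2 fold change 0.72, SE 0.09, edgeR adjusted p = 0.000173). GCERAdT and TRACK differed by -0.14 (SE 0.10, edgeR adjusted p = 0.417) and GCERAdT and GCERAd by -0.00 (SE 0.10, edgeR adjusted p = 0.984). Among the 10 enzymes, Chdh had the highest CPM in each of the 4 groups.

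Dmgdh and Sardh encode the mitochondrial flavoenzymes that demethylate dimethylglycine and sarcosine and pass the carbon to folate. Dmgdh varied little, with means of 160 CPM in WT, 171 in GCERAd, 128 in TRACK and 129 in GCERAdT. With all samples of a comparison, edgeR called it between GCERAdT and GCERAd alone (log2 fold change -0.38, SE 0.10, edgeR adjusted p = 0.0279). That call was lost on leaving out any 1 sample other than GCERAd 1 or GCERAdT 4, with adjusted p-values up to 0.0867, and with the possible repeat libraries summed (edgeR adjusted p = 0.0579). In TRACK against WT, DESeq2 called Dmgdh lower (-0.31, adjusted p = 0.0494), and edgeR did so without TRACK 2 (-0.45, adjusted p = 0.0435). Against WT, Dmgdh in GCERAd differed by 0.09 (SE 0.10, edgeR adjusted p = 0.56).

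Sardh rose and fell far more. WT samples held 235, 222, 252, 236 and 278 CPM. GCERAd samples held 399, 555, 496, 585 and 566 CPM, so the lowest GCERAd value was above the highest WT value. TRACK samples held 450, 434 and 266 CPM, and GCERAdT samples held 312, 307, 267 and 343 CPM. Sardh was 2.11 times higher in GCERAd than in WT (log2 fold change 1.08, SE 0.11, edgeR adjusted p = 2.83e-05), and the difference was 0.94 within kind A (edgeR adjusted p = 0.00108). It was 1.56 times higher in TRACK than in WT (log2 fold change 0.65, SE 0.15, edgeR adjusted p = 0.00625), although TRACK 3 lay within the WT range. It was 1.67 times lower in GCERAdT than in GCERAd (log2 fold change -0.74, SE 0.12, edgeR adjusted p = 0.00226), with no overlap between these groups. GCERAdT against TRACK gave -0.30 (SE 0.17, edgeR adjusted p = 0.297), and -0.50 without TRACK 3 (edgeR adjusted p = 0.0258).

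Bhmt2 and Dmgdh are read from opposite strands of chromosome 13 of GRCm38, with Bhmt2 at chr13:93655720-93674302 on the minus strand and Dmgdh at chr13:93674433-93752833 on the plus strand. Their annotated starts are 130 bases apart, and Bhmt lies 17758 bases beyond the other end of Bhmt2, at chr13:93616675-93637961. Within groups, Bhmt2 and Dmgdh varied together over the 17 samples (r = 0.83 of deviations from the group means), and Bhmt and Bhmt2 did not (r = -0.14). Library kind and depth vary among the samples, and their part in this was not tested. Dmgdh also varied with Sardh (r = 0.86) and Chdh (r = 0.84), which lie on other chromosomes. TRACK 3 was the lowest TRACK sample for Bhmt2, Dmgdh, Sardh and Chdh. Between groups the pair did not always move together, with Bhmt2 at 0.50 and Dmgdh at 0.09 on the log2 scale in GCERAd against WT. The 130 bases between both starts, chr13:93674303-93674432, are shown because the pair moved together within groups. They are written 5′ to 3′ on the plus strand, from the RefSeq promoter windows of GRCm38.p6. Capitals mark the 6 CpG dinucleotides, and 70.8% of the bases are G or C.
Bhmt2-Dmgdh start sites: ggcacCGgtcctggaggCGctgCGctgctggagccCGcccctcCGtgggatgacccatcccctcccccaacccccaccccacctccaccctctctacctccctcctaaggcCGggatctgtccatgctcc
RefSeq promoter windows, 250 bases before to 50 bases after a start, were found for 9 of the 10 genes, and none for Cth. The core of the C/EBP-ATF response element, TGATGNAA, searched on both strands, was in 0 of these 11 windows, against 3.97% of all 32851 windows. That says only that these letters are not in these windows.

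Mat2a encodes the catalytic subunit of the methionine adenosyltransferase of non-hepatic tissues, which makes SAM. It was at 191 to 236 CPM in WT and 257 to 323 CPM in GCERAd, without overlap (log2 fold change 0.40, SE 0.09, edgeR adjusted p = 0.00655). GCERAdT samples held 213, 194, 207 and 176 CPM, all below the 217, 239 and 254 CPM of TRACK, but that difference was not called (-0.24, SE 0.10, edgeR adjusted p = 0.188). Against GCERAd, GCERAdT was 1.42 times lower (log2 fold change -0.51, SE 0.09, edgeR adjusted p = 0.00462) and without overlap. Mat1a, the gene of the liver form, was at most at 4.11 CPM in any sample.

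Gnmt encodes glycine N-methyltransferase, which uses SAM to turn glycine into sarcosine. WT samples held 32.8, 32.9, 40.0, 30.8 and 40.8 CPM and GCERAd samples 18.2, 20.3, 18.6, 27.4 and 37.4 CPM. TRACK samples held 21.5, 24.4 and 15.8 CPM, and GCERAdT samples 13.1, 12.0, 12.7 and 20.7 CPM. WT was highest and GCERAdT lowest by their means, and GCERAd 5 reached into the WT range. Gnmt fell in GCERAd against WT (log2 fold change -0.55, SE 0.18, edgeR adjusted p = 0.0422). The call was lost on leaving out any 1 sample other than GCERAd 5, with adjusted p-values up to 0.0976, and with the possible repeat libraries summed (edgeR adjusted p = 0.112). Without GCERAd 4 and 5 together the difference was -0.89 (edgeR adjusted p = 0.00015). Gnmt was also lower in TRACK than in WT, without overlap (log2 fold change -0.79, SE 0.15, edgeR adjusted p = 0.00179). With library kind as a factor, where TRACK is in effect set against the 1 kind B library of WT, this value was -0.69 (edgeR adjusted p = 0.0543). GCERAdT against TRACK gave -0.47 (SE 0.20, edgeR adjusted p = 0.186), and -0.67 without GCERAdT 4 (edgeR adjusted p = 0.0301).

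Ahcy encodes S-adenosylhomocysteine hydrolase, which clears the product that inhibits methyltransferases. Its level followed the kind of library. The 8 kind A libraries held 228 to 310 CPM and the 9 kind B libraries 96.4 to 182 CPM, without overlap. Ahcy was the only one of the 10 enzymes whose kinds did not overlap, as was the case for 560 of 12197 genes (4.59%). Within kind A the means were 296 CPM in WT, 273 in GCERAd and 231 in GCERAdT. Within kind B they were 136 CPM in the 1 WT sample, 154 in GCERAd, 106 in TRACK and 108 in GCERAdT. TRACK, all kind B, was 2.5 times lower than WT when kinds were pooled (log2 fold change -1.32, SE 0.24, edgeR adjusted p = 0.00146). With library kind as a factor the difference was -0.37 (edgeR adjusted p = 0.0416), and against the kind B WT sample -0.36 (edgeR adjusted p = 0.123). Both of these values rest on the 1 kind B library of WT. GCERAdT against TRACK gave 0.71 over all samples (SE 0.29, edgeR adjusted p = 0.162) and 0.05 within kind B. GCERAd against WT was not called (-0.40, SE 0.26, edgeR adjusted p = 0.283) and gave -0.02 with library kind as a factor. GCERAdT against GCERAd was not called over all samples but gave -0.37 with library kind as a factor (edgeR adjusted p = 0.0294).

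**Figure D3:**
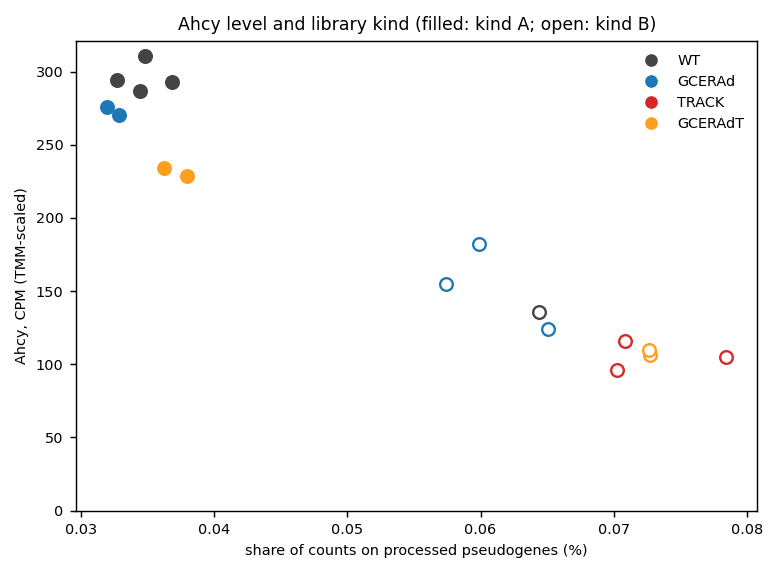
Ahcy in CPM (axis from 0) against the share of counts on processed pseudogenes in percent, 1 point per sample, with filled points for kind A and open points for kind B. The kinds separate on both axes, at 228 to 310 CPM and 96.4 to 182 CPM, and WT, GCERAd and GCERAdT have samples in both.

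Cbs and Cth encode cystathionine beta-synthase and gamma-lyase, the enzymes that carry the sulfur of homocysteine to cysteine. Cbs was tight in WT at 87.6, 79.9, 83.9, 78.7 and 86.1 CPM. GCERAd samples held 222, 211, 188, 144 and 157 CPM, all above WT. TRACK samples held 123, 127 and 87.3 CPM, and GCERAdT samples 116, 118, 100 and 149 CPM. The 2 kind A samples of GCERAd had its highest values. Cbs was 2.21 times higher in GCERAd than in WT (log2 fold change 1.14, SE 0.12, edgeR adjusted p = 4.69e-05), and 1.37 higher on the log2 scale within kind A (edgeR adjusted p = 4.12e-06). Against WT, TRACK was 1.35 times higher (log2 fold change 0.43, SE 0.11, edgeR adjusted p = 0.0111). This call was lost without TRACK 1 (0.36, edgeR adjusted p = 0.0554) or TRACK 2 (0.33, edgeR adjusted p = 0.0628). GCERAdT was 1.52 times lower than GCERAd (log2 fold change -0.60, SE 0.15, edgeR adjusted p = 0.0207), a call lost without GCERAd 2 or any 1 of GCERAdT 1, 2 and 3, with adjusted p-values up to 0.0667. Cth, in contrast, passed in none of the 4 comparisons. Its means were 218 CPM in WT, 197 in GCERAd, 184 in TRACK and 179 in GCERAdT, and its largest log2 difference was -0.25 (SE 0.12, edgeR adjusted p = 0.119) for TRACK against WT. DESeq2 did not call Cth in any of them either.

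GCERAd against WT is the comparison made for deletion of ATF4 in proximal tubules. The groups also differ in sex, as above, and in the Ggt/CreER transgene and floxed alleles. Tamoxifen is given for GCERAd only. None of these can be told apart from the deletion. Of the 10 enzymes, by edgeR 5 rose (Bhmt2, Chdh, Sardh, Mat2a and Cbs) and 2 fell (Bhmt and Gnmt), while Dmgdh, Ahcy and Cth were not called. These 7 of 10 stand beside 27.7% of the 11575 genes tested, 14.2% higher and 13.5% lower. With the possible repeat libraries summed, edgeR called 6 of the 10, and Gnmt was no longer called (adjusted p = 0.112). In 5 of the 10 the groups did not overlap, against 20% of all genes. The median log2 fold change was 0.24 over the 10 enzymes and -0.00 over all genes tested. In the male-biased transcripts, 7 of 7 measured, the WT sum was 16.5 to 18.7 CPM and that of every other sample at least 1170 CPM. This list was chosen with earlier results of these data known. It holds Slc7a13 and Slc22a30, which the study reports as higher in GCERAd. The sum therefore only describes how WT stands apart, and the part of sex in the enzyme differences was not tested.

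GCERAdT against TRACK compares the knockout label within the cancer model, and all 7 samples carried Y-linked transcripts. None of the 10 enzymes was called by edgeR. DESeq2 called 1, Bhmt, and 4 had an unadjusted edgeR p of at most 0.05 (Bhmt, Mat2a, Ahcy and Gnmt). The background was 7.11% of 11931 genes called, 2.82% higher and 4.29% lower, and 25.1% at an unadjusted p of at most 0.05. Mat2a alone did not overlap between the groups, against 22.9% of all genes. The median log2 fold change was -0.06 over the 10 enzymes and 0.01 over all genes tested. Bhmt was called without TRACK 2 or GCERAdT 3, Sardh without TRACK 3 and Gnmt without GCERAdT 4, with the values given above for each.

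In TRACK against WT edgeR called 6 of the 10, with Chdh, Sardh and Cbs higher and Bhmt, Ahcy and Gnmt lower. Of the 11968 genes tested, 45.7% were called, 23.1% higher and 22.6% lower, and 4 enzymes did not overlap between the groups against 44.3% of all genes. The median log2 fold change was -0.08 over the 10 enzymes and -0.01 over all genes tested. With library kind as a factor, 3 stayed called, Bhmt, Chdh and Ahcy. All TRACK libraries were kind B, so this fit in effect sets TRACK against WT 2, the only kind B library of WT. Injured tubule markers, summed over 3 of 3 genes, were at 1.66 to 4.05 CPM in WT and 2.29 to 9.23 in GCERAd, against 20.8 to 50.3 in TRACK and 31.3 to 39.2 in GCERAdT. By edgeR all 3 rose in TRACK against WT, but elsewhere the sum did not stand for each marker. In GCERAd against WT, Havcr1 rose (3.67, edgeR adjusted p = 0.00777), Lcn2 fell (-1.48, edgeR adjusted p = 0.00299) and Krt20 was not called. In GCERAdT against TRACK, Havcr1 rose (0.82, edgeR adjusted p = 0.0358). Lcn2 (-2.30, edgeR adjusted p = 0.0261) and Krt20 (-1.95, edgeR adjusted p = 0.0214) fell there.

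GCERAdT against GCERAd compares the groups with the knockout label, with and without the cancer model. Atf4 was higher in GCERAdT, as given above. Tamoxifen, age and fasting are not given for GCERAdT, so they cannot be told apart from the model. By edgeR 5 of the 10 enzymes fell, Bhmt2, Dmgdh, Sardh, Mat2a and Cbs. None rose. DESeq2 called 6, with Gnmt as well (adjusted p = 0.015), and edgeR with library kind as a factor 7, with Gnmt (adjusted p = 0.0312) and Ahcy. The background was 19.2% of 11771 genes, 9.40% higher and 9.76% lower, and 3 enzymes (Bhmt2, Sardh and Mat2a) did not overlap against 19.6% of all genes. The median log2 fold change was -0.45 over the 10 enzymes and -0.00 over all genes. Samples with the same number in these groups deviated together, but they were also of the same library kind. The labels give no pairing, and GCERAd 5 has no partner. With the number as a replicate block 8 of the 10 were called. The additional calls were Bhmt, higher by 0.73 (edgeR adjusted p = 0.0047), Ahcy, lower at -0.28 (edgeR adjusted p = 0.0214), and Gnmt, lower at -0.53 (edgeR adjusted p = 0.00468). Without GCERAd 4 and 5 the count was 3 (Sardh, Mat2a and Cbs). With the possible repeat libraries summed the count was 4, and Dmgdh was no longer called (edgeR adjusted p = 0.0579). Leaving out GCERAdT 1 or GCERAdT 2 left 2 calls, and leaving out GCERAd 2, GCERAd 3 or GCERAdT 3 left 3. The proximal tubule sum was also lower in GCERAdT, as given above.

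**Figure D4:**
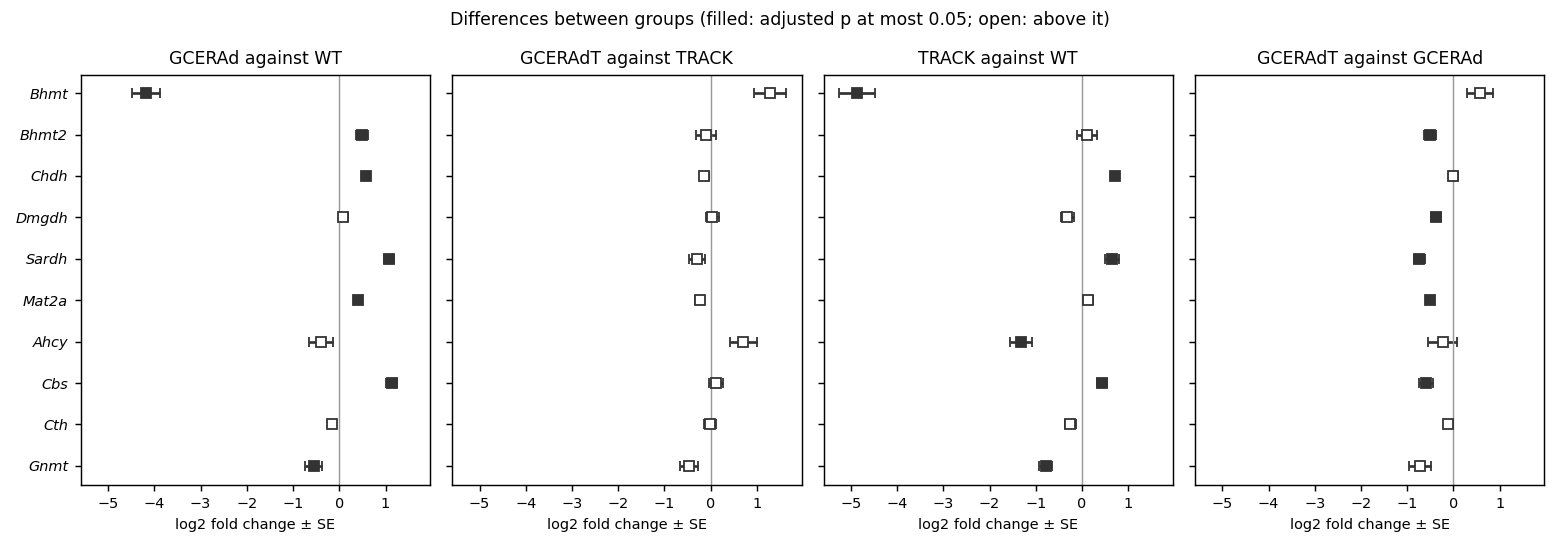
Log2 fold change of each enzyme with its SE in the 4 comparisons, from edgeR, with filled squares for an adjusted p of at most 0.05 and open squares above it. Bhmt is far below 0 in both comparisons with WT, at -4.18 and -4.87, and no square is filled in GCERAdT against TRACK.

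Whether the knockout label went with a different change in the cancer model was tested as the difference between the GCERAdT against TRACK and GCERAd against WT log2 fold changes over all 17 samples. It was called for 5 of the 10 enzymes, against 25.2% of 12197 genes, 12.4% higher and 12.8% lower. Bhmt had the largest, 5.46 (SE 0.50, edgeR adjusted p = 1.12e-06), since it was lower in GCERAd than in WT but not in GCERAdT than in TRACK. Its mean in TRACK was already 3.62 CPM, or 0.63 FPKM and below the minimum for testing, against 106 CPM in WT. That left little room for a further fall, so the value rests largely on the high WT level. The difference was -1.37 for Sardh (SE 0.20, edgeR adjusted p = 0.000157), -1.02 for Cbs (SE 0.21, edgeR adjusted p = 0.00202), -0.70 for Chdh (SE 0.13, edgeR adjusted p = 0.00113) and -0.63 for Mat2a (SE 0.14, edgeR adjusted p = 0.00306). These 4 rose in GCERAd against WT and were not called in GCERAdT against TRACK. Only the first of these contrasts also crosses the sexes, so the model and the sex of the controls cannot be told apart in the difference. Ahcy was not called (1.11, SE 0.44, edgeR adjusted p = 0.0726) but passed without WT 2 (1.27, edgeR adjusted p = 0.0268), and within kind B the value was -0.12. It also passed with the possible repeat libraries summed (1.18, edgeR adjusted p = 0.0307) and on leaving out any 1 of GCERAd 1, GCERAd 2, GCERAdT 3 and GCERAdT 4. Bhmt2 was not called (-0.60, SE 0.27, edgeR adjusted p = 0.107) but passed without TRACK 3 (-0.88, edgeR adjusted p = 0.00487).

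**Figure D5:**
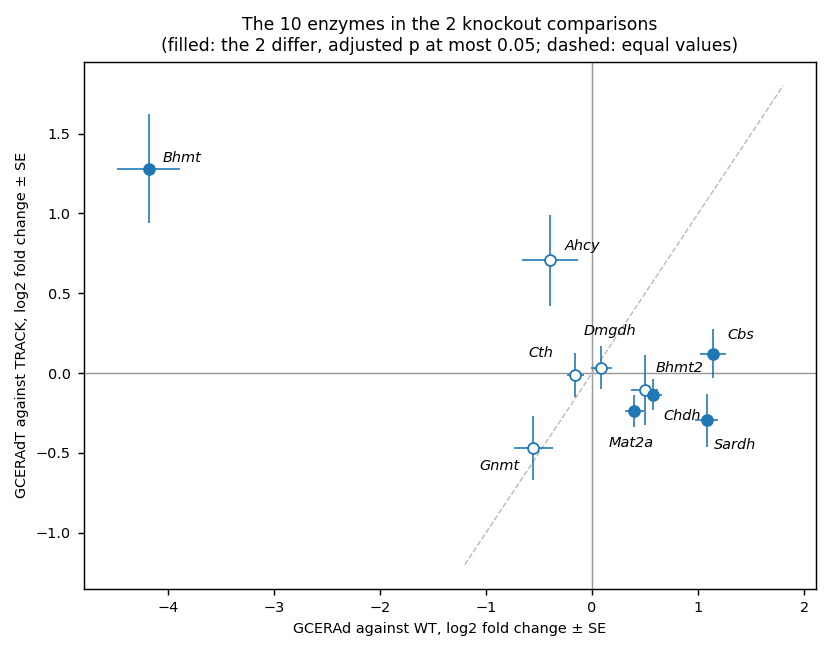
Log2 fold change in GCERAdT against TRACK (vertical) against that in GCERAd against WT (horizontal), with the SE of each as bars, 1 point per enzyme. Filled points mark an adjusted p of at most 0.05 for the difference between both. Bhmt lies far to the left at -4.18 and above 0, and Sardh, Cbs, Chdh and Mat2a lie to the right of the dashed line of equal values.

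Other genes of the pathway were read from 6 lists with 77 genes in all, for which levels are group means in CPM. In GCERAd against WT, 21 of the 69 tested rose and 9 fell (43.5%, against the 27.7% of all genes). In the methionine and SAM list 4 of 8 rose and none fell, among them the AHCY-like genes Ahcyl1, from 200 to 257 CPM, and Ahcyl2, from 252 to 351 CPM. Among the small-molecule methyltransferases, Tpmt, which methylates thiopurines, rose from 57.9 to 89.8 CPM (log2 fold change 0.63, SE 0.11, edgeR adjusted p = 0.0017). Inmt, indolethylamine N-methyltransferase, went from 216 to 1060 CPM (log2 fold change 2.29, SE 0.24, edgeR adjusted p = 5.42e-05). In choline and betaine supply 3 of 13 rose and 3 fell. Slc6a12, the betaine transporter of osmotically stressed cells, fell from 4.36 to 0.688 CPM (log2 fold change -2.65, SE 0.60, edgeR adjusted p = 0.00695). In the folate list 4 of 19 rose and 4 fell. Ftcd, of histidine breakdown, rose from 2.53 to 18.3 CPM and the cytosolic serine hydroxymethyltransferase Shmt1 fell from 97.0 to 52.4 CPM. In the list of cysteine, sulfide, taurine and glutathione 5 of 14 rose and 2 fell, with Csad, of taurine synthesis, going from 155 to 309 CPM and Mpst, which forms sulfide, from 104 to 61.0 CPM. In methionine salvage and polyamines 2 of 9 rose, Adi1 from 37.3 to 76.6 CPM and Odc1, ornithine decarboxylase, from 214 to 384 CPM. The lists' median log2 fold changes, in this order, were 0.21, 0.29, 0.22, 0.01, 0.27 and -0.08, beside -0.00 over all genes tested.

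In GCERAdT against TRACK 2 of the 71 genes tested rose and 3 fell (7.04%, against 7.11% of all genes). Fpgs, which keeps folates in cells, went from 65.3 to 91.7 CPM (log2 fold change 0.51, SE 0.09, edgeR adjusted p = 0.0108), and Ethe1, the sulfur dioxygenase of mitochondria, from 36.0 to 55.6 CPM. Aldh1l1, which oxidises formyltetrahydrofolate, fell from 696 to 414 CPM (log2 fold change -0.73, SE 0.14, edgeR adjusted p = 0.0166). Slc25a48, a mitochondrial choline carrier, fell from 20.2 to 13.8 CPM, and the choline kinase Chkb from 31.0 to 22.0 CPM. In TRACK against WT 23 of 72 rose and 20 fell (59.7%, against 45.7%). The mitochondrial folate enzyme Aldh1l2 had 2.14 CPM in WT and 113 CPM in TRACK (log2 fold change 5.72, SE 0.31, edgeR adjusted p = 1.07e-06), and Mthfd1l had 1.39 and 7.31 CPM. In methionine salvage and polyamines 1 of 9 rose and 5 fell, with Amd1, which decarboxylates SAM, at 37.1 CPM in WT and 12.1 CPM in TRACK and the spermine synthase Sms at 38.0 and 15.3 CPM. All TRACK libraries were of kind B, whose part in these list counts was not tested. In GCERAdT against GCERAd 9 of 71 rose and 16 fell (35.2%, against 19.2%). Aldh1l2 went from 2.68 to 106 CPM and Mthfd2 from 2.17 to 16.4 CPM, while Inmt fell from 1060 to 320 CPM and Slc25a48 from 48.8 to 13.8 CPM. The difference between both knockout comparisons was called for 26 of 72 genes, 11 higher and 15 lower (36.1%, against 25.2%).

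Genes whose levels were most like a member over all 17 samples were named for the 3 members with the widest span of group means, by Pearson's r of log2 CPM. For Bhmt these were Cyp2d26 (r = 0.956), Stx18 (0.954) and Xist (0.951). For Gnmt they were Pxmp2 (0.921), Idh2 (0.921) and Gpt (0.920), and for Ahcy Pam16 (0.969), Apoo (0.958) and Rsph3a (0.957). Group, sex and library kind differ among the samples, and these values are descriptions over 17 samples. By Spearman's rho, 3 of these 9 genes would again be among the 3 most alike.

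Annotated antisense or overlapping genes share exonic bases with 5 members. These were Cacna1d with Chdh (589 bases), Particl with Mat2a (508), AW495222 with Dmgdh (215), Sardhos with Sardh (188) and Gm15622 with Bhmt (187). The partner had at most 560 counts where the member had at least 19486 (Cacna1d and Chdh), and at most 16 where Bhmt had at least 124. The strand setting of the counting is not given in the sources used here, so reads from such a pair cannot be told apart.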

How the data were processed

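RNA from kidney cortex was sequenced in 17 libraries, which the labels number as separate mice. The deposited table holds raw read counts per gene. Per the labels, the authors used bcl2fastq 2.20 for demultiplexing, Cutadapt for trimming, STAR for alignment (GRCm38) and HTSeq for the counting. The annotation release and strand setting are not given in the sources used here. Samples were grouped by their labels, and 0 columns of other samples were present.

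Counts were scaled with TMM and compared in R 4.3.3 with edgeR 4.0.16 (quasi-likelihood test, Benjamini-Hochberg adjustment over all genes tested, threshold 0.05). CPM were computed over all 17 samples, and FPKM with merged-exon lengths of GENCODE M21, which matched 48435 of 48795 genes. The 663 genes without a name stayed in the tests. A gene was tested if its mean FPKM reached 1 in either group, and all 10 members passed in every comparison. Each comparison was fitted on its own groups, and the difference between the knockout comparisons on all 17 samples. The SE was derived from the fold change and F statistic. The Bhmt share was compared with exact permutation tests. The procedure was tested on simulated data.

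No pair of replicates agreed within sampling noise (chi-square per gene 21.9 to 329, genes with at least 50 counts). All were counted separately in the main tests. The check cannot tell separate mice from repeat libraries of different kind, which could also differ by more than sampling noise. The possible repeats are such pairs, WT 1 and 2 (55.3) and GCERAd 2 and 3 (65.8). The highest chi-square values were between GCERAd 4 or 5 and GCERAd 1 to 3. In GCERAdT against GCERAd, same-numbered samples deviated together in all 4 pairs (r of deviations 0.39 to 0.49); they also share library kind. In the other comparisons the correlations were between -0.54 and 0.04.

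Alternatives were DESeq2 1.42.0, RLE scaling, other FPKM minimums, a replicate block, library kind as a factor, 1 fit of all samples, summed possible repeat libraries and each sample left out. Fits within kind A or kind B and without GCERAd 4 and 5, and the Bhmt share with possible repeats summed, were chosen after seeing the data, as was the split into kinds at 0.0477%. The members, the gene lists and the rule for like genes (the 3 best for the 3 members of widest span; in each list the 2 called genes of largest change) were chosen with earlier results of these data known. The WT and GCERAd labels number 5 mice each, although the protocol speaks of 3 to 4 per cohort and some library names in the study's sequencing record look like repeats. Repeats are thus possible, and p-values then measure a spread that may be partly technical. Which samples those libraries became is not stated. Matched by library name order and read number, the like-named pairs would be WT 1 and 2 and GCERAd 2 and 3. Every test with 5 samples in WT or GCERAd carries this limit, and its SD and p-value may count 1 mouse more than once. With possible repeats summed, edgeR lost Gnmt in GCERAd against WT (adjusted p = 0.112). It lost Dmgdh in GCERAdT against GCERAd (adjusted p = 0.0579) and gained Ahcy for the difference (adjusted p = 0.0307). The Bhmt share in GCERAd against WT did not pass (exact permutation test, adjusted p = 0.114). Depth was 53688512 to 71364561 counts per sample. The count of called genes in the list of small-molecule methyltransferases is not reported here.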

Additional observations from a re-analysis of the deposited data

Results flagged for a closer look

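Ahcy in WT 2, the only kind B library of WT, was at 136 CPM, apart from the other 4 WT samples at 287 to 310 CPM; its gap was 0.865 of the group's range. Gnmt in GCERAdT 4 was at 20.7 CPM, apart from 12.0 to 13.1 CPM in the other 3, with a gap of 0.876 of the range. In all, 30 sets of samples were looked at, and chance alone sets apart about 1 in 20. GCERAdT against TRACK and GCERAd against WT differed in log2 fold change, by edgeR's test of the difference, for Bhmt (5.46), Chdh (-0.70), Sardh (-1.37), Mat2a (-0.63) and Cbs (-1.02).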

How the results depend on the processing

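Of 990 alternative values for the enzymes, 867 kept their direction and side of the threshold, 55 lost the call, 29 gained it and 39 changed sign. Of 99 counts of enzymes called, 80 stayed within 1.5 times. With possible repeat libraries summed (WT 1 and 2, GCERAd 2 and 3), 6, 6, 4 and 6 enzymes were called in GCERAd against WT, TRACK against WT, GCERAdT against GCERAd and the difference. The causes were not tested, other than that fits within 1 kind hold fewer samples, with 1 WT sample in kind B. Values below are log2 fold changes. In GCERAd against WT, 0 of the 10 enzymes were called within kind B, where 98 of all genes passed. Dmgdh turned to -0.10 within kind A and -0.01 without GCERAd 4 and 5, and Ahcy to 0.15 within kind B. In GCERAdT against TRACK, 1 was called with DESeq2, with no FPKM minimum and with all 17 samples in 1 fit, Bhmt each time. Bhmt2 turned to 0.02 and Cth to 0.11 with library kind as a factor, and to 0.01 and 0.11 within kind B. In TRACK against WT, 3 were called with library kind as a factor and 2 within kind B; Bhmt2 turned to -0.01 in both and Mat2a to -0.00 with the factor. In GCERAdT against GCERAd, 1 was called within kind B and 3 without GCERAd 4 and 5. Chdh, at -0.00, turned to 0.00 with RLE scaling, DESeq2, the FPKM minimum on the mean of all samples and the kind factor, to 0.01 in 1 fit of all samples, to 0.17 within kind A and to 0.11 without GCERAd 4 and 5. For the difference between the knockout comparisons, 2 were called within kind B, where Ahcy turned to -0.12 and Gnmt to -0.03, and Dmgdh turned to 0.04 without GCERAd 4 and 5.

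With each sample left out in turn, the enzymes called ranged from 6 to 7 in GCERAd against WT, 0 to 1 in GCERAdT against TRACK, 5 to 7 in TRACK against WT, 2 to 6 in GCERAdT against GCERAd and 5 to 6 for the difference. Values that changed sign ranged, in GCERAdT against TRACK, from -0.37 to 0.11 for Bhmt2, -0.12 to 0.15 for Dmgdh, -0.03 to 0.21 for Cbs and -0.16 to 0.09 for Cth. They ranged from -0.12 to 0.37 for Bhmt2 in TRACK against WT and from -0.05 to 0.05 for Chdh in GCERAdT against GCERAd. For the difference they ranged from -0.21 to 0.08 for Dmgdh, -0.01 to 0.25 for Cth and -0.13 to 0.29 for Gnmt.

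With the sample number as a replicate block, 8 of the 10 enzymes were called in GCERAdT against GCERAd (3745 of all genes, against 2256 without it), where Chdh turned to 0.04. In the other comparisons the samples share only a number, and the block gave 7 calls (2109 genes against 3203) in GCERAd against WT, 0 (714 against 848) in GCERAdT against TRACK, 5 (3430 against 5468) in TRACK against WT, where Bhmt2 turned to -0.07, and 5 for the difference. Over all genes, GCERAdT against TRACK called 1562 with DESeq2, 462 with the kind factor, 220 within kind B and 376 to 1422 with 1 sample left out. Its calls split 336 higher and 512 lower, against 358 and 356 with the block. The kind factor gave 2783 calls in TRACK against WT. Within kind B, TRACK against WT gave 1486, GCERAdT against GCERAd 346 and the difference 453 calls.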
